A study of Mus musculus with 6 samples.

Results

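The genes examined were those of the enzymes that write, copy and remove DNA methylation, chosen by gene name: Dnmt1, Dnmt3a, Dnmt3b, Dnmt3l, Uhrf1, Tet1, Tet2 and Tet3, or 8 of the 54532 genes counted. The RNA-seq libraries came from spermatocytes in leptotene and zygotene (L/Z), the opening stages of meiotic prophase, isolated by FACS from mouse testes at 12 dpp (days postpartum). Control males, labelled wild type and described as littermates in the study's text, gave 3 libraries, and Eef1g-cKO males gave 3. In the latter a floxed part of the Eef1g gene is deleted by Stra8-GFPCre, on a C57BL/6J background. This recombinase is expressed in germ cells from the spermatogonial stage. eEF1G, the product of Eef1g, belongs to the eEF1 complex that serves translation elongation. The comparison asked how loss of eEF1G alters these RNAs in cells of the same sort gate. The labels do not say whether libraries of a genotype came from separate animals, so p-values measure only the spread between these libraries, which may be technical.

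DNA methylation in mammals sits mostly on the cytosine of CG dinucleotides (CpG). DNMT1 copies it to the new strand after replication, guided by UHRF1, which binds hemimethylated CpG sites; DNMT3A and DNMT3B set new methylation, helped by DNMT3L, a relative without catalytic activity of its own; and TET1, TET2 and TET3 oxidise methylated cytosine, the first step of its active removal. In the male germ line most methylation is laid down in fetal prospermatogonia and then copied through the divisions of spermatogonia, the mitotic cells from which spermatocytes arise.

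The 8 genes fell into a measured and a barely measured set. Reads were sufficient for a test in 5 of 8 genes (Dnmt1, Uhrf1, Dnmt3a, Dnmt3b and Tet3), of which 4 were lower in Eef1g-cKO and 0 were higher (edgeR quasi-likelihood test, Benjamini-Hochberg adjusted p under 0.05 over 8513 tested genes). The lower genes were Dnmt1, Dnmt3a, Dnmt3b and Tet3, and Uhrf1 did not pass the test. Among all tested genes 6.01% were called lower and 7.8% higher. With the study's limit of an absolute log2 fold change over 1 added, 3 of the genes were lower, against 4.96% of all tested genes, and 0 were higher, against 3.42%. For the 5 genes the median of the log2 fold changes was -1.26, and for all tested genes it was -0.05. No gene of the set had an unadjusted p under 0.05 in the higher direction (0 genes), and DESeq2 and limma-voom likewise called 0 higher.

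The start regions of the 5 tested genes are given here because 4 of these genes were lower together, and because CpG sites are what the encoded enzymes act on. Each sequence is the 250 bases before a RefSeq transcript start (GRCm38.p6), read 5′ to 3′ on the strand of the gene, with every CG dinucleotide in capitals. They were taken from chr9:20952980-20953229 (minus strand) for Dnmt1, chr17:56304063-56304312 (plus) for Uhrf1, chr12:3806730-3806979 (plus) for Dnmt3a, chr2:153649199-153649448 (plus) for Dnmt3b and chr6:83441679-83441928 (minus) for Tet3, and none of them overlaps an annotated exon of its gene.
Dnmt1: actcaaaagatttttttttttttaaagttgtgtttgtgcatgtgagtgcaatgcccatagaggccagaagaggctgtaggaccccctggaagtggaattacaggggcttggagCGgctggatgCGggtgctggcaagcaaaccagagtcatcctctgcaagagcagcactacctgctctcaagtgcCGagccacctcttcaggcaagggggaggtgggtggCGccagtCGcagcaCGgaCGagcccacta
Uhrf1: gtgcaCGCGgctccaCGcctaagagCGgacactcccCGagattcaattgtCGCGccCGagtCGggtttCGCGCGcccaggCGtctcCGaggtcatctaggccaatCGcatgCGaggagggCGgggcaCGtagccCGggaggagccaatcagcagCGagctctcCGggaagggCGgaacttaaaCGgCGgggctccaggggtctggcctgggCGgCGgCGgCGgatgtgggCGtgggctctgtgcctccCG
Dnmt3a: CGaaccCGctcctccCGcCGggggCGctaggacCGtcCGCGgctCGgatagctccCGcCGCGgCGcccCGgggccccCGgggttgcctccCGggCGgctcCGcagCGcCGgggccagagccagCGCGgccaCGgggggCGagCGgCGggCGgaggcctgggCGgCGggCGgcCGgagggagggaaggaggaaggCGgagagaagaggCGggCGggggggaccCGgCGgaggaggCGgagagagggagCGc
Dnmt3b: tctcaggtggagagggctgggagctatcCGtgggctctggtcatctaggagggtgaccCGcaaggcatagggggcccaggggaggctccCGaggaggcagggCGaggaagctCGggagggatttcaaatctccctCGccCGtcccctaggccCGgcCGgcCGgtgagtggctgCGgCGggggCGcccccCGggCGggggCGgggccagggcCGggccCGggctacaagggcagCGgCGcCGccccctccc
Tet3: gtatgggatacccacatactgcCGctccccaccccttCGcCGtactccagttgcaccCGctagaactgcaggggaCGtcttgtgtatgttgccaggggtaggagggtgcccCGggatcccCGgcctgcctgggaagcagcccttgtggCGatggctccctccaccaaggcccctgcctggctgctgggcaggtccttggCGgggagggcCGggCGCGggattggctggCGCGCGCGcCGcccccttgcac

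These windows held 7 CG dinucleotides for Dnmt1, 30 for Uhrf1, 38 for Dnmt3a, 21 for Dnmt3b and 17 for Tet3, and the median over 32841 such windows of 27018 genes was 6. For a gene with several starts, the printed window was the one with the most CG dinucleotides among those without exon overlap. The windows behind the median were not chosen in this way. As many CG dinucleotides or fewer were present in 57.0% of all windows for Dnmt1 and in 98.4% for Dnmt3a. Windows before other starts held 10 CG dinucleotides for Uhrf1 (64.4% of all windows) and 15 and 40 for Dnmt3a (74.6% and 98.9%). Dnmt1 has 3 RefSeq starts, and the windows before the other two, chr9:20952624-20952873 and chr9:20959889-20960138, held 26 and 2 CG dinucleotides (91.4% and 29.0% of all windows), so its place depends on the start. The E2F spellings TTTCCCGC, TTTCGCGC, TTTGCCGC and TTTGGCGC, the sites of factors known to drive S-phase genes, were searched on both strands; they occur in 1.86% of all windows. Among the windows printed above one had a match, TTTCGCGC in Uhrf1, and TTTCGCGC also lies on the minus strand of the Dnmt1 window with 26 CG dinucleotides. Tet2, not among the tested genes, had 51 CG dinucleotides before its start, against a highest count of 56 over all windows.

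**Figure D1:**
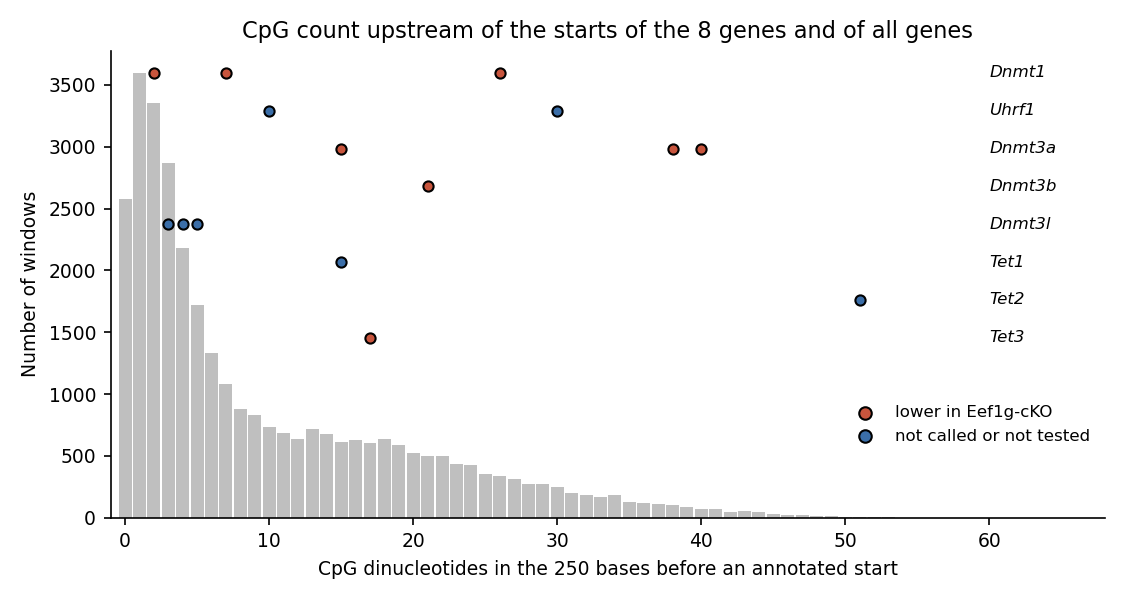
CG dinucleotides in the 250 bases before RefSeq transcript starts: the grey bars count all 32841 windows by their number of CG dinucleotides (x axis), and the marks show the windows of the 8 genes. All windows of each gene are marked, also those not printed. The window printed for Dnmt1 lies near the median of 6. Those printed for Uhrf1 and Dnmt3a, and the Tet2 window, lie in the upper tail. Another Uhrf1 window held 10 CG dinucleotides and another Dnmt3a window 15.

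Library totals ran from 1265850 to 1834558 reads in Control and from 763133 to 2617648 in Eef1g-cKO, so that 3 reads, taken as the detection floor, correspond to 1.18 to 4.63 CPM (reads per 1000000 of the scaled library total). Eef1g-cKO replicate 3 was the shallowest and had the largest share of nuclear rRNA, 9.23%, against 2.73% in the lowest library; depth and this share overlapped between genotypes. The number of genes with reads did not: it was 14903, 15761 and 15333 in Control and 12770, 14514 and 11174 in Eef1g-cKO, lower there even in replicate 2, the deepest library. The part of this in the results below was not tested. The targeted gene itself (Eef1g, chromosome 19) had 222, 226 and 212 CPM in Control and 139, 151 and 119 CPM in the Eef1g-cKO libraries, without overlap, and fell to 62.4% of Control (log2 fold change -0.68 ± 0.20 SE, edgeR adjusted p = 0.029). RNA counted for this gene was thus reduced and not absent in the sorted cells. The study's deletion removes only part of its exons, while the counts cover the whole gene, so intact RNA was not measured. By Western blot the study found eEF1G protein markedly reduced in sorted L/Z cells. The call for Eef1g RNA was lost in 4 of 12 alternatives and in 4 of 6 with 1 library left out. With the GC content offset the log2 fold change was -0.41 (edgeR adjusted p = 0.198). All 10 of 10 L/Z marker genes were tested, of which 5 were higher in Eef1g-cKO, 5 were not called and 0 were lower. Their summed level was 9046 to 10286 CPM in Control against 18953 to 24557 CPM in Eef1g-cKO. Sycp1 alone averaged 5101 and 10487 CPM. These levels do not measure the purity of either sort. In bulk libraries like these, fewer cells of a type and less RNA per cell cannot be told apart.

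Markers of other cells the gate could hold went the other way. The summed level of 11 undifferentiated spermatogonia markers was 282 to 372 CPM in Control and 65.1 to 90.6 CPM in the Eef1g-cKO libraries, with Lin28a, Nanos3 and Ret at 0 in every Eef1g-cKO library and Utf1 at 0 in all 6; of the 3 tested, Sall4 and Uchl1 were called lower. For 7 differentiating spermatogonia markers the sums were 1918 to 2359 and 1195 to 1433 CPM, where 5 of 7 were lower (among them Kit at -1.22, Sohlh1 at -1.41 and Ccnd2 at -2.37, log2 fold change) and Rhox13 was higher. Sertoli cell markers (7 genes) summed to 78.6 to 278 CPM in Control and 1.54 to 45.3 CPM in the Eef1g-cKO libraries, with Amh and Gata4 at or under 2 reads in every library and Rhox5 with 8 reads in Control replicate 2 and 18 in Eef1g-cKO replicate 2 alone, and peritubular and stromal markers (6 genes) to 129 to 239 and 12.4 to 51.0 CPM. Pachytene and later markers (8 genes) summed to 24.7 to 40.9 and 0 to 18.4 CPM, and Leydig markers (5 genes) to 8.40 to 10.7 and 1.57 to 6.47 CPM. Blood and endothelial markers (8 genes) overlapped, at 17.9 to 76.3 and 3.53 to 75.7 CPM. The 8 methylation genes themselves summed to 605 to 803 CPM in Control and 357 to 505 CPM in the Eef1g-cKO libraries. The part of these marker changes in the lower levels of Dnmt1, Dnmt3a, Dnmt3b and Tet3 was not tested.

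**Figure D2:**
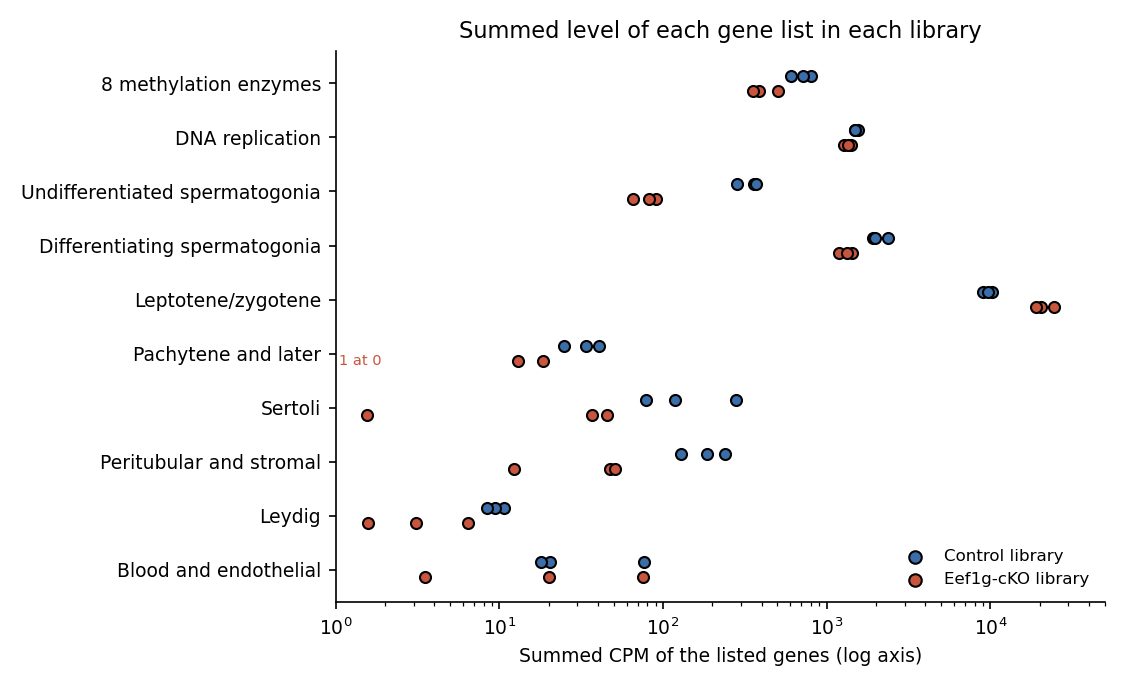
Summed CPM of each fixed gene list (x axis, log scale) in the 3 Control and 3 Eef1g-cKO libraries, 1 point per library. The methylation enzymes and both spermatogonial lists lie lower in every Eef1g-cKO library than in any Control library, and the leptotene/zygotene list lies higher.

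Of the maintenance pair, Dnmt1 was lower and Uhrf1 did not pass the test. Dnmt1 (ENSMUSG00000004099, chr9:20907209-20959888, minus strand), the maintenance methyltransferase, had 312, 174 and 237 CPM in Control replicates 1 to 3 and 159, 137 and 83.4 CPM in Eef1g-cKO replicates 1 to 3. Every Eef1g-cKO library lay below every Control library, although the lowest Control value and the highest Eef1g-cKO value were close. Mean levels were 241 ± 69.3 and 127 ± 39.0 CPM (SD, n = 3 each), which left Dnmt1 at 53.4% of Control (log2 fold change -0.90 ± 0.26 SE, 95% interval -1.44 to -0.37, edgeR adjusted p = 0.0237), short of the fold change limit. The call depended on single Control libraries: without Control replicate 1, the highest, the log2 fold change was -0.67 with an adjusted p of 0.184, and without Control replicate 3 the adjusted p was 0.080.

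Uhrf1 (ENSMUSG00000001228, chr17:56303321-56323486, plus strand), which brings DNMT1 to hemimethylated sites, had 231, 216 and 250 CPM in Control and 253, 164 and 184 CPM in the Eef1g-cKO libraries. Its groups overlapped, and the highest of the 6 values was in Eef1g-cKO replicate 1. Means were 233 ± 17.0 and 200 ± 46.8 CPM, and the log2 fold change of -0.22 ± 0.20 SE had a 95% interval from -0.65 to 0.21 (edgeR adjusted p = 0.538), so that a fall of Dnmt1's size lies outside this interval. The sign of the Uhrf1 estimate turned with a correction for transcript GC content (0.12). The ratio of Uhrf1 to Dnmt1 within a library, per gene length and therefore independent of library scaling, was 1.28, 2.16 and 1.83 in Control and 2.75, 2.07 and 3.82 in Eef1g-cKO. The groups overlapped through Eef1g-cKO replicate 2, and the difference of 0.70 in log2 ratio did not pass a 2-sided exact permutation test (p = 0.2, adjusted over 3 ratios 0.6); the smallest p that 3 against 3 libraries allow is 0.1. The difference between the 2 genes was thus not established.

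Both de novo methyltransferases were lower in Eef1g-cKO. Dnmt3a (ENSMUSG00000020661, chr12:3806007-3914443, plus strand) had 63.4, 58.3 and 70.0 CPM in Control and 32.3, 20.4 and 10.8 CPM in the Eef1g-cKO libraries. The groups were well apart, and the Eef1g-cKO libraries spread widely, with the lowest value, from 7 reads, in the shallow replicate 3. Control averaged 63.9 ± 5.87 CPM and Eef1g-cKO 21.2 ± 10.8 CPM (log2 fold change -1.54 ± 0.39 SE, 95% interval -2.37 to -0.72, edgeR adjusted p = 0.0131), or to 34.3% of Control by the fit. Leaving out Eef1g-cKO replicate 3 gave a log2 fold change of -1.27 with the call kept, whereas leaving out Control replicate 1 or 3 raised the adjusted p to 0.0541 and 0.073.

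Dnmt3b (ENSMUSG00000027478, chr2:153649450-153687730, plus strand) had 95.4, 70.3 and 70.5 CPM in Control and 27.5, 28.6 and 30.9 CPM in the Eef1g-cKO libraries. Here the Eef1g-cKO libraries were nearly equal to each other, and all were well below the lowest Control library. Means were 78.8 ± 14.4 and 29.0 ± 1.73 CPM, a fall to 36.8% of Control (log2 fold change -1.44 ± 0.33 SE, 95% interval -2.13 to -0.76, edgeR adjusted p = 0.00611); without Control replicate 1 the adjusted p was 0.0534. Of the 5242 distinct runs of 50 bases in Dnmt3b transcripts, 514 (9.81%) also occur in Dnmt3c, a rodent de novo methyltransferase that arose as its copy, and Dnmt3c had 0 reads in all 6 libraries.

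The ratio of Dnmt3b to Dnmt3a per gene length was 4.91, 3.93 and 3.29 in Control and 2.77, 4.58 and 9.31 in Eef1g-cKO. Eef1g-cKO replicates 1 and 3 held the lowest and the highest of the 6 ratios, so the groups overlapped fully (log2 difference 0.30, 2-sided exact permutation p = 0.8, adjusted 0.8). Dnmt3l (ENSMUSG00000000730, chr10:78041947-78063622, plus strand), the cofactor, had 4, 0 and 2 reads in Control and 0, 0 and 0 in Eef1g-cKO. These counts are at the floor in both groups, and no difference was detectable at this depth.

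Among the TET dioxygenases Tet3 was the only one with enough reads for a test. Tet3 (ENSMUSG00000034832, chr6:83362373-83459084, minus strand) had 96.2, 83.5 and 78.4 CPM in Control and 30.7, 33.7 and 44.8 CPM in the Eef1g-cKO libraries. The groups did not overlap, and each spread by less than the gap between them. Tet3 averaged 86.0 ± 9.17 CPM in Control and 36.4 ± 7.41 CPM in the Eef1g-cKO libraries, which is 41.7% of Control by the fit (log2 fold change -1.26 ± 0.31 SE, 95% interval -1.91 to -0.61, edgeR adjusted p = 0.0112); without Control replicate 1 the adjusted p was 0.0656.

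Tet1 (ENSMUSG00000047146, chr10:62804570-62908996, minus strand) had 0, 0 and 7 reads in Control and 0, 0 and 0 in Eef1g-cKO, so all its reads came from Control replicate 3. Tet2 (ENSMUSG00000040943, chr3:133463679-133545139, minus strand) had 2, 6 and 9 reads in Control and 2, 0 and 2 in Eef1g-cKO, and the groups met at 2 reads. When no filter on low counts was applied, Dnmt3l, Tet1 and Tet2 had edgeR adjusted p-values of 0.469, 0.468 and 0.671. The ratio of the 3 summed Tet genes to the summed Dnmt1, Dnmt3a and Dnmt3b, per gene length, was 0.0903, 0.127 and 0.105 in Control and 0.0670, 0.0796 and 0.159 in Eef1g-cKO. Eef1g-cKO replicate 3 lay above all Control libraries and replicates 1 and 2 below them (log2 difference -0.17, 2-sided exact permutation p = 0.7, adjusted 0.8). The smallest p of this test is 0.1, so it cannot decide whether the ratio shifted. The Tet sum was mostly Tet3 and the Dnmt sum mostly Dnmt1, at 5.15 and 32.7 CPM per kb in Control.

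**Figure D3:**
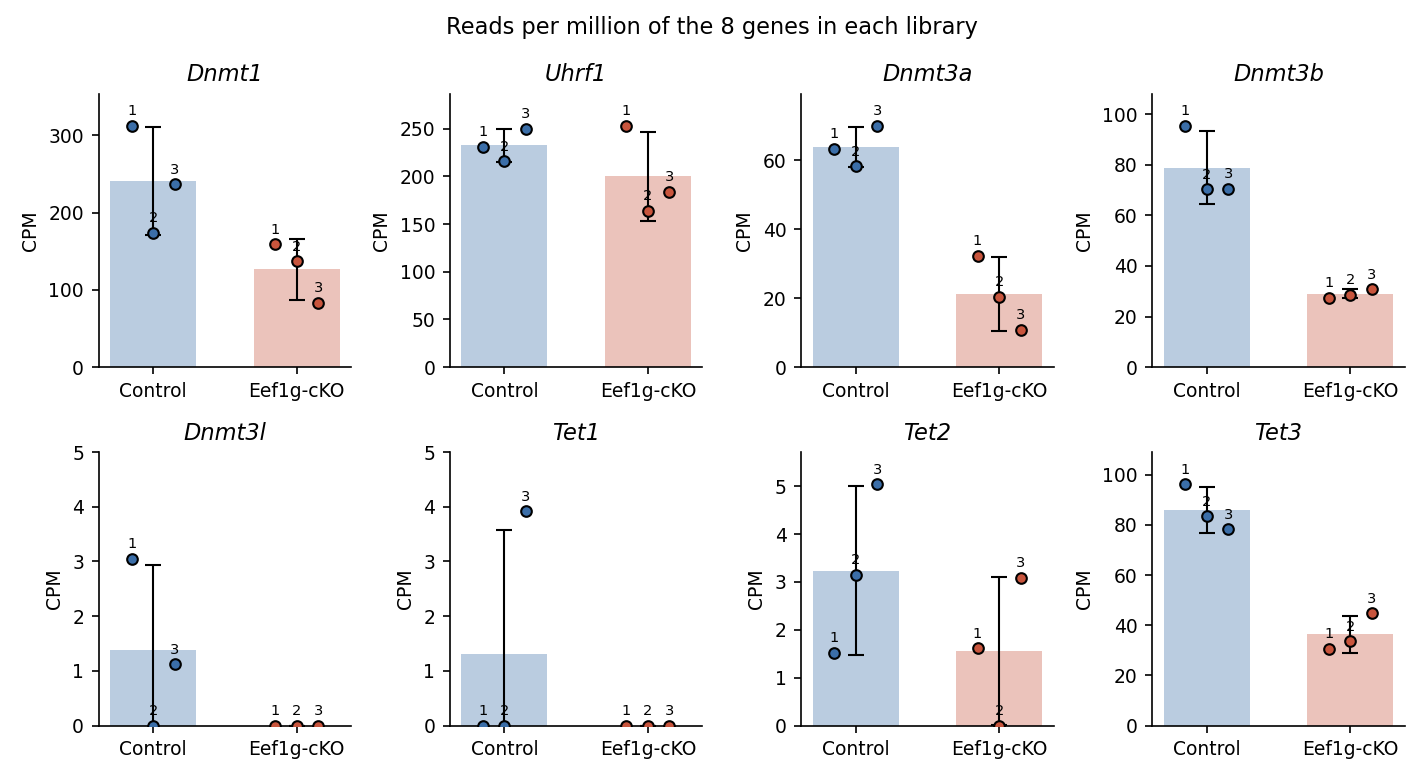
CPM of each of the 8 genes (y axis) in the 3 Control and 3 Eef1g-cKO libraries, with points for libraries, bars for the mean and error bars for the SD. Dnmt1, Dnmt3a, Dnmt3b and Tet3 show no overlap between genotypes, Uhrf1 overlaps, and Dnmt3l, Tet1 and Tet2 stay near 0.

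In the 4 called genes the CPM of the genotypes did not overlap, a pattern seen in the lower direction in 18.1% of all tested genes. Values for base composition and shared sequence stand beside this. The transcripts of these genes are rich in G and C: the 5 tested genes had 51.9% to 54.0% GC, against a median of 47.6% over the tested genes, and across all tested genes, which are not independent, GC content and log2 fold change had a Spearman correlation of -0.28. With an offset for GC content in each library Dnmt3a (-1.28, adjusted p = 0.0402) and Dnmt3b (-1.13, adjusted p = 0.0292) were still called, whereas Dnmt1 (-0.56, adjusted p = 0.155) and Tet3 (-0.93, adjusted p = 0.0601) were not, all by edgeR. As to shared sequence, 638 of the 4348 runs of 50 bases in Uhrf1 transcripts also occur in the processed pseudogene Gm5648, and how the counting treated such reads is not stated. Antisense and neighbouring genes that overlap the 8 genes, such as Dnmt3aos and Dnmt3bos, had 0 reads in all libraries. How reads on overlapping genes were counted is not stated either, so these counts do not show whether such RNA was present.

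Compared per length, as CPM per kilobase of the deposited gene length, the genes kept one order in both genotypes among the 5 tested. In Control, Uhrf1 was highest at 54.6 ± 3.99 CPM per kb (SD, n = 3), followed by Dnmt1 at 32.7 ± 9.39, Dnmt3b at 15.4 ± 2.82, Tet3 at 5.15 ± 0.55 and Dnmt3a at 3.84 ± 0.35 CPM per kb. Each of these was above the next in every Control library, so by this measure the maintenance genes led and the de novo enzyme Dnmt3b stood above Dnmt3a. The size of the latter gap depends on the length used. Without length scaling Dnmt3b and Dnmt3a were close in Control, at 78.8 ± 14.4 and 63.9 ± 5.87 CPM. Their deposited lengths were 5106 and 16642 bases, against 4320 and 9685 for the longest annotated transcript. With the transcript lengths the Control means were 18.2 and 6.59 CPM per kb. Dnmt3l, Tet2 and Tet1 followed at 0.465, 0.192 and 0.0845 CPM per kb on average and overlapped each other. In Eef1g-cKO the levels were 47.0 for Uhrf1 (38.5 to 59.4 over its 3 libraries), 17.1 ± 5.28 for Dnmt1, 5.68 ± 0.34 for Dnmt3b, 2.18 ± 0.44 for Tet3 and 1.27 ± 0.65 CPM per kb for Dnmt3a, and the last 2 overlapped. The share of Uhrf1 in the summed length-scaled level of the 8 genes was 49.0 ± 5.11% in Control and 63.9 ± 4.80% in Eef1g-cKO, and that of Dnmt3b 13.7 ± 1.46% and 7.97 ± 1.80%.

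**Figure D4:**
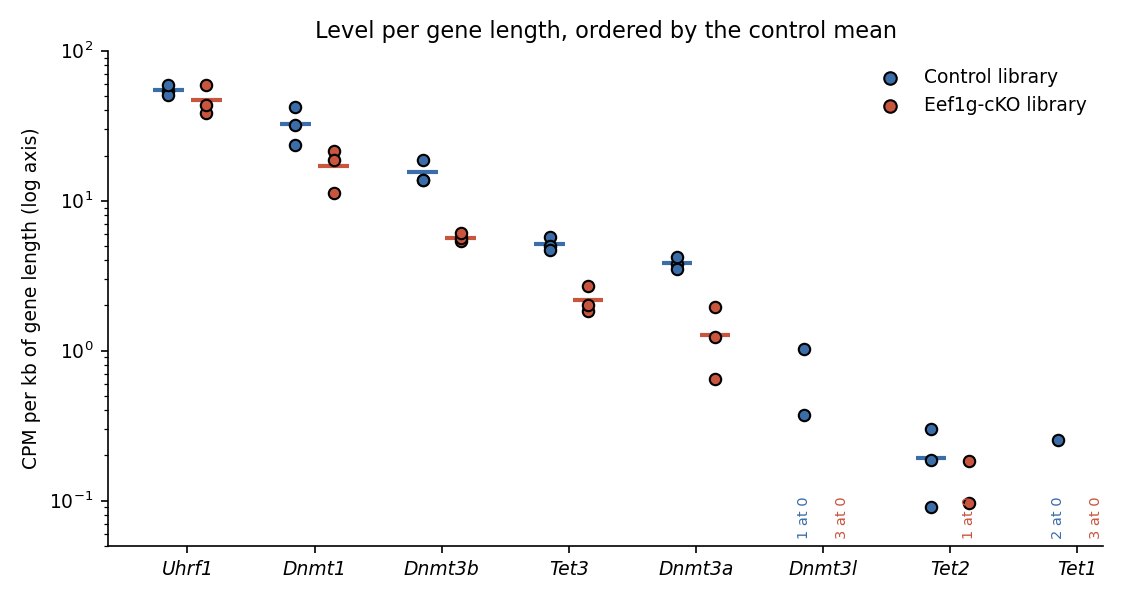
Levels of the 8 genes as CPM per kilobase of gene length (log axis), ordered by the Control mean, with 1 point per library. Uhrf1 and Dnmt1 lead in both genotypes, at 54.6 and 32.7 CPM per kb in Control, and Dnmt3l, Tet2 and Tet1 lie below all others.

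Other genes of the pathway were called in both directions. Of 66 genes in 6 lists, 50 were tested, 9 were higher and 2 lower in Eef1g-cKO, against 7.8% and 6.01% of all tested genes. The same shares are the background for the counts of each list below. The median log2 fold change of the 50 genes was 0.05. With upper-quartile scaling or library totals only, which move the median of all genes to -0.17 and -0.24, 4 and 3 were higher and 2 and 3 lower. Among partners of maintenance methylation, 3 were higher and 0 lower of 8 tested (10 listed). Pcna, the replication clamp that DNMT1 binds, had 323, 311 and 329 CPM in Control and 519, 717 and 717 CPM in the Eef1g-cKO libraries (log2 fold change 1.02 ± 0.17 SE, edgeR adjusted p = 0.000576). Uhrf2, the paralog of Uhrf1, rose by 0.78 ± 0.21 (edgeR adjusted p = 0.0191) and Hells, a chromatin remodeller needed for methylation of repeats, by 0.46 ± 0.13 on the log2 scale (edgeR adjusted p = 0.0219). Thus Uhrf2 went from 109 ± 6.07 to 187 ± 15.8 CPM while Dnmt1 was lower; the call was lost for Uhrf2 in 2 of 12 alternatives with all libraries (library totals only and thinning) and in 4 of 6 with 1 library left out, and for Hells in 7 of 12 (among them upper-quartile scaling, library totals only and the GC content offset, at 0.16) and in 3 of 6.

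Genes that guide de novo methylation were mixed, with 2 higher and 1 lower of 6 tested (9 listed). Tex15, which acts in piRNA-directed methylation and in meiotic recombination, rose by 0.74 ± 0.16 SE (log2; 1314 ± 175 to 2194 ± 430 CPM, edgeR adjusted p = 0.00381), and Nsd2, a histone H3 lysine methyltransferase, rose by 0.65 ± 0.19 (edgeR adjusted p = 0.0278). With the GC content offset Tex15 was at 0.43 and Nsd2 at 0.47, and neither was called; in all, Tex15 lost its call in 2 of 12 alternatives and in 0 of 6 with 1 library left out, and Nsd2 in 7 of 12 and 5 of 6. Kdm1b, a histone demethylase required for maternal imprints in oocytes, was lower (log2 fold change -1.26 ± 0.39 SE, 70.0 ± 26.1 to 29.0 ± 11.2 CPM, edgeR adjusted p = 0.0374). Its call was lost in 2 of 12 alternatives and in 4 of 6 with 1 library left out (each Control library and Eef1g-cKO replicate 1); without Control replicate 1 it was at -0.91. Of 9 genes listed as readers of methylated CpG, some of them for a methyl-CpG-binding domain alone, 2 were higher and 0 lower. Binding to methylated CpG was not measured. Mbd5, listed for that domain, was at 1.11 ± 0.36 (log2 fold change, edgeR adjusted p = 0.0454). Its call was lost in 6 of 12 alternatives, other scalings among them, and in 5 of 6 with 1 library left out.

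Base excision genes, which replace oxidised methylcytosine, had 0 called in either direction of 11 tested (16 listed) by edgeR. At an unadjusted p under 0.05, 2 were lower and 0 higher, DESeq2 called 0 and limma-voom called 1 lower. Tdg, the glycosylase that acts downstream of the TET enzymes, had 16.8, 7.35 and 20.2 CPM in Control and 8.89, 11.8 and 21.6 CPM in the Eef1g-cKO libraries, with overlap (log2 fold change -0.11 ± 0.63 SE). Of 5 tested TET partners (8 listed) 1 was higher and 0 lower. Ogt, a glycosyltransferase bound by TET proteins, had 111 ± 28.7 and 133 ± 1.51 CPM and did not pass. In the methyl donor cycle, 1 of 11 tested genes (14 listed) was higher and 1 lower: Mat2a, which makes S-adenosylmethionine, rose by 0.52 ± 0.15 (edgeR adjusted p = 0.0219), and Shmt1, a folate cycle enzyme, was at -1.19 ± 0.29 (log2 fold change, edgeR adjusted p = 0.0112), a call lost without Control replicate 1 or 3. Mat2a lost its call in 6 of 12 alternatives, upper-quartile scaling, library totals only and the GC content offset among them, and without any one of the 3 Control libraries. Pcna was called under every alternative run.

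**Figure D5:**
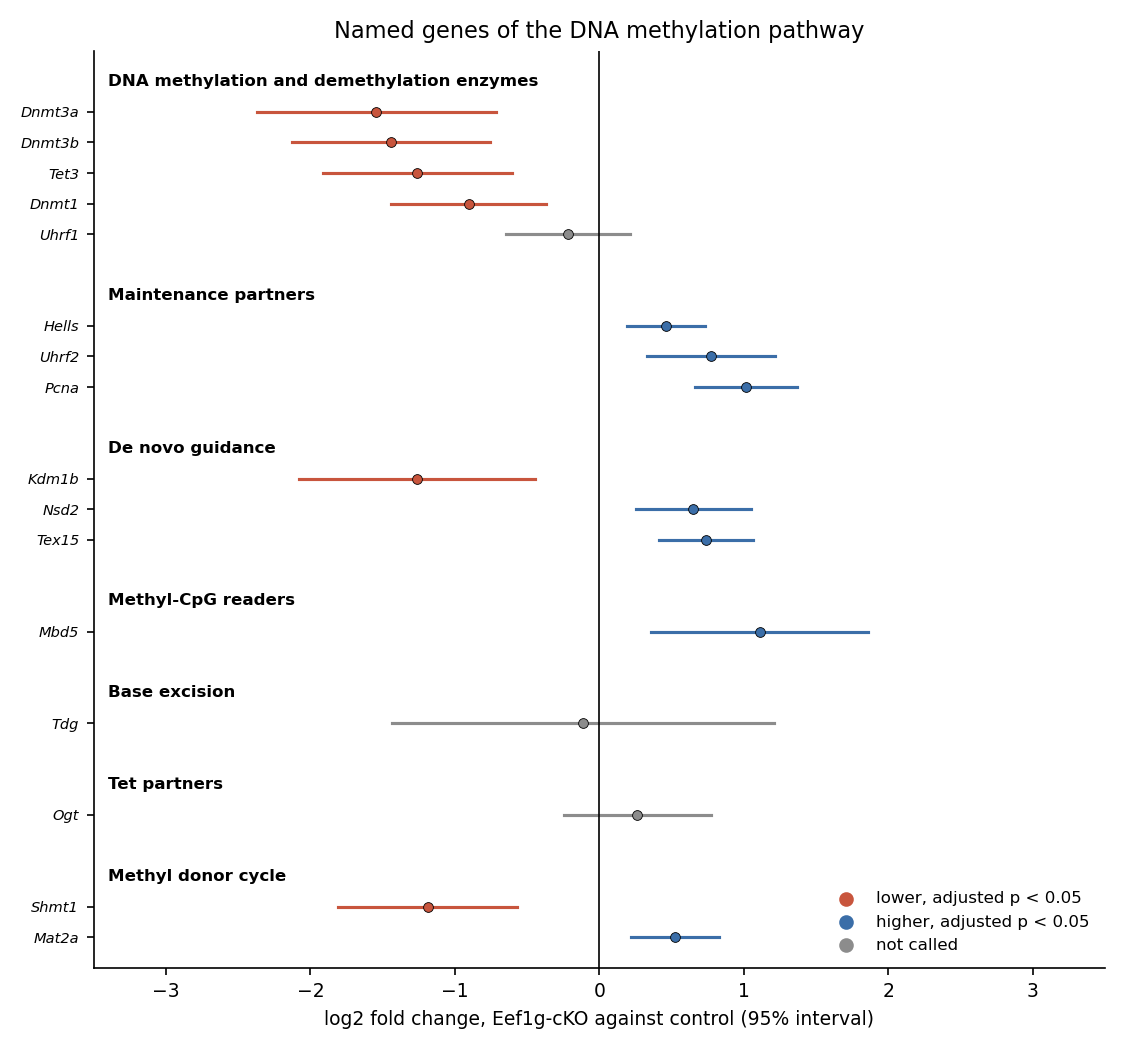
Log2 fold change, Eef1g-cKO over Control (x axis), of the 5 tested enzymes and of the pathway genes named in the text, with 95% intervals that are not adjusted for the number of genes; red points were lower and blue points higher at an adjusted p under 0.05, and grey points were not called. The enzymes lie below 0, from -0.22 to -1.54, whereas the named pathway genes lie on both sides of 0.

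Replication genes were taken as a comparison, since Dnmt1 and Uhrf1 are known to be expressed with S phase. Of 21 tested (22 listed), 0 were higher and 2 lower, against 7.8% and 6.01% of all tested genes, and the median was -0.06. The lower genes were the licensing factors Cdc6 (-1.57 ± 0.47 SE on the log2 scale, adjusted p = 0.0316 by edgeR) and Cdt1 (-1.32 ± 0.30, adjusted p = 0.00611 by edgeR). Cdc6 lost its call in 4 of 11 alternatives and 4 of 6 with 1 library left out, and Cdt1 in 2 of 12 and 0 of 6. The summed level of the 22 listed genes was 1490 to 1554 CPM in Control and 1283 to 1402 CPM in the Eef1g-cKO libraries. Such sums weigh abundant genes most. Pcna, the replication clamp, was listed with the maintenance partners and enters neither these counts nor the sum. It was higher, at 323, 311 and 329 CPM in Control and 519, 717 and 717 CPM in Eef1g-cKO. Lig1, listed there too, was not called. By gene, CPM did not overlap in the lower direction in 6 of the 21, against 18.1% of all tested genes. In the higher direction it was 0 of the 21, against 16.4%. The part of S phase in the lower enzyme levels was not tested.

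The genes whose log2 CPM followed each enzyme most closely over the 6 libraries, among 4713 genes whose mean was 50 reads or more, are given as a description, since 6 libraries of 2 genotypes share depth and cell make-up. For Dnmt1 they were Hcfc1 (Pearson r = 0.988), Gnb4 (0.987) and Tomm34 (0.979), and for Uhrf1 Lta4h (0.990), Dync1li2 (0.960) and Exo1 (0.954). Dnmt3a was nearest to Tmem50a (0.999), to Sall4 (0.989), one of the undifferentiated spermatogonia markers, and to Vim (0.986), an intermediate filament gene of mesenchymal and Sertoli cells. For Dnmt3b the nearest were Rplp1 (0.992), Hdac6 (0.990) and Ccnd1 (0.990), and for Tet3 Psmc5 (0.998), Sertad4 (0.994) and Hmgn1 (0.991). None of the 15 nearest genes was another of the 8 enzymes. Dnmt3l, Tet1 and Tet2 had fewer than 50 reads on average and could not be among them. With only 3 places among 4713 genes for each enzyme, this does not show whether the enzymes vary together.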

How the data were processed

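RNA-seq was performed on 3 Control and 3 Eef1g-cKO libraries of L/Z spermatocytes. Polyadenylated RNA was amplified as full-length cDNA without molecular identifiers, so that PCR copies count as separate reads and floors cover counting error only. The authors filtered reads with fastp, aligned them to GRCm38 (mm10) with HISAT2 2.2.1 and counted genes with featureCounts 2.0.6; strand use and the handling of multiply aligned reads are not given in the sources used here. The deposited values are raw counts per gene, neither normalised nor pooled. Columns were matched to samples by name and groups taken from sample titles. All 6 libraries differed pairwise by more than sampling noise (chi-square per degree of freedom at least 6.37).

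Counts were tested with edgeR 4.0.16 in R 4.3.3 (filterByExpr, minimum count 10 and total 15; TMM; robust quasi-likelihood F test with genotype as the only term; Benjamini-Hochberg over 8513 genes, which held 98.1% of reads). A gene was called at an adjusted p under 0.05. SE was computed from the log2 fold change and F (its size over the root of F). CPM used TMM-scaled totals. The fit was checked on simulated counts with 200 changed genes and the same dispersion for every gene. That check does not show how the test behaves at the spread of these libraries. Ratios were tested by 2-sided exact permutation over libraries. Alternatives were other scalings and filters, DESeq2 1.42.0, limma 3.58.1 (voom), a replicate block, a GC offset, thinning to 763133 reads and leaving out each library. GENCODE mouse release M21 gave transcripts and RefSeq the start regions, which matched all 8 genes.

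The genes and lists were chosen with earlier results of these data known. Named genes were the 8 enzymes, Eef1g, in each direction up to 8 called genes of the pathway and replication lists that had the largest change and a mean of 20 reads or more, listed genes tied to an enzyme (Dnmt3c, Uhrf2, Hells, Pcna, Tdg, Mat2a, Ogt), and the 3 genes most correlated with each enzyme; marker genes and overlapping genes are named as examples of their lists. Some listed genes that entered the counts are not reported here by name.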

Additional observations from a re-analysis of the deposited data

How the results depend on the processing

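Among the 12 alternatives that kept all libraries, the 4 lower calls (Dnmt1, Dnmt3a, Dnmt3b and Tet3) kept their direction in each. Other scalings, no filter, DESeq2, non-robust estimation, thinning and the replicate block kept all 4 calls; at least 10 reads in every library kept 3 and left Dnmt3a untested, since Eef1g-cKO replicate 3 held 7 reads. With limma-voom Dnmt1 was at -0.67 (adjusted p = 0.0506). With the GC content offset Dnmt1 was at -0.56 and Tet3 at -0.93, which left 2 of the genes lower. With the replicate block and GC content offset together, Dnmt1 was at -0.57, Dnmt3a at -1.36, Dnmt3b at -1.11 and Tet3 at -0.93 (adjusted p = 0.157, 0.052, 0.0554 and 0.0973), and 0 were lower by edgeR. Uhrf1 turned to 0.12 with the GC offset and 0.10 with both; the cause was not tested in any of these.

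Leaving out 1 library each gave log2 fold changes of -1.09 to -0.67 for Dnmt1, -0.40 to -0.07 for Uhrf1, -1.90 to -1.27 for Dnmt3a, -1.51 to -1.27 for Dnmt3b and -1.37 to -1.13 for Tet3. The count of lower enzymes ranged from 0 to 4: it was 0 without Control replicate 1, 2 without Control replicate 3 and 4 without any one of the others. A fit with fewer libraries has less power by construction.

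The number of pathway genes higher, 9, was 4 with upper-quartile scaling, 3 with library totals only, 4 with at least 10 reads in every library, 4 with the replicate block, 5 with the block and GC offset and 4 after thinning, and 3 to 8 with 1 library left out (3 without any one of the Control libraries). Against 2 lower in the report there were 4 when every library had to hold at least 10 reads, 5 with limma-voom, 1 with the block and 1 with the block and GC offset, and 0 to 5 with 1 library left out. Tdg, at -0.11, turned to 0.00026 with the GC offset, 0.075 with the block and GC offset, and ran from -0.46 to 0.20 with 1 library left out. Log2 differences in ratio with 1 library left out were -0.16 to 0.71 for Dnmt3b to Dnmt3a, 0.48 to 0.92 for Uhrf1 to Dnmt1 and -0.54 to 0.08 for the Tet sum to the Dnmt sum.

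Deviations of same-numbered libraries from their group means correlated at -0.04, 0.02 and -0.05 (none above 0.1). For differently numbered libraries of the genotypes the values ran from -0.04 to 0.06. They gave no sign of pairing by replicate number, but cannot show whether libraries were paired by litter or day, which the labels do not give. The order of Control levels per length was the same with the longest GENCODE transcript as the length, an alternative chosen after seeing the data. Depth limits Dnmt3l, Tet1 and Tet2, which had at most 9 reads in any library.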

Other observations

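A few genes of the de novo and imprint pathways had too few reads for a test. Piwil4, the nuclear piRNA-binding protein of prospermatogonia, had 14, 1 and 18 reads in Control and 0, 2 and 0 in Eef1g-cKO. Spocd1, which acts with it, had 7, 0 and 7 reads in Control and 0 in each Eef1g-cKO library. Both had too few reads for the edgeR test, and like Dnmt3l, Tet1 and Tet2 their reads came mostly from Control libraries, which also held more spermatogonial and somatic marker RNA; the part of either was not tested. Zfp57, a zinc finger factor that protects imprints, had 0 reads in all 6 libraries. Piwil4, Spocd1 and Zfp57 were named after their values had been seen.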
